A study of Mus musculus with 4 samples.

Results

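The colony stimulating factors are a small set of secreted proteins, with their receptors, that govern the survival, division and activation of myeloid cells. The genes described here are 4 ligands (Csf1, Il34, Csf2 and Csf3) and 5 receptor chains (Csf1r, Csf2ra, Csf2rb, Il3ra and Csf3r). They were taken by gene symbol from the count table of one wild-type library and looked up by Ensembl identifier in the other tables, and all 9 were found among the 19308 genes listed for every library. Of these genes, 16956 passed the filter on low counts and were tested, including all 9. Csf2 and Csf3 passed through their counts in the knockout libraries, so their presence among tested genes already required a higher level there.

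RNA sequencing of total RNA was done on colonic mucosa from wild-type (WT) mice, labelled C57BL/6, and from Itch knockout (Itch KO) mice, with 2 libraries per group. Itch encodes a HECT-type E3 ubiquitin ligase, an enzyme that tags other proteins for degradation or altered signalling. The extraction protocol describes the knockout mucosa as inflamed, whereas the sample labels give all 4 libraries the state of inflammation. Genotype and inflammation cannot be told apart in this design. The labels give no age, sex or kind of Itch allele, and nothing says that the 2 libraries of a group came from separate animals, so the p-values rest on a spread that may be technical.

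CSF1 (macrophage colony stimulating factor) and interleukin-34 are unrelated in sequence but share a receptor, the tyrosine kinase CSF1R, on which monocytes and macrophages depend. CSF2 (granulocyte-macrophage factor) binds CSF2RA, its own alpha chain, which then pairs with the common beta chain CSF2RB. Interleukin-3 uses IL3RA with the same beta chain or, in mice, with a close copy of it encoded by Csf2rb2. CSF3 (granulocyte factor) acts through paired CSF3R chains and drives neutrophil production. In the intestine, T cells, innate lymphoid cells, epithelium and stroma are known sources of these ligands, and interleukin-34 is best known from keratinocytes and neurons.

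The beta chain gene Csf2rb needs its sequence shown first, because its neighbour Csf2rb2 is nearly identical and counts of the pair may be split between them. In GRCm38, Csf2rb lies on chromosome 15 from 78325752 to 78353847 on the plus strand, and Csf2rb2 from 78282507 to 78305721 on the minus strand, 20 kb apart. Their longest annotated coding sequences (GENCODE M21) hold 2688 and 2634 bases and matched at 2503 of 2628 aligned positions, or 95.2%. Of all 2639 windows of 50 bases in the Csf2rb coding sequence, 26% occurred without a mismatch in that of Csf2rb2. The 90 coding bases that differ most, with no gap, carried 16 mismatches, which are set in capitals below. They begin at coding base 308 of Csf2rb and at coding base 311 of Csf2rb2.
Csf2rb: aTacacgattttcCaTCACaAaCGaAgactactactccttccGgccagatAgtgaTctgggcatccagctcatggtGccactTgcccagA
Csf2rb2: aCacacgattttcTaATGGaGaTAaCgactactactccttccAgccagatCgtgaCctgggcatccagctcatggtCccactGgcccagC

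The longest stretch without a mismatch ran over 242 bases, from coding base 2083 to 2324 in both genes. A short read from it could not be assigned to either gene.
Shared stretch: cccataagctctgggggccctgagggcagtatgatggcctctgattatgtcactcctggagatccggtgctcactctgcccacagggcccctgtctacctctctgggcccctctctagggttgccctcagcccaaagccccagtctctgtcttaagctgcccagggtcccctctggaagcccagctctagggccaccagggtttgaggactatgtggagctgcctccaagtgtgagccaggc

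Over the 19308 shared genes the libraries held 8181193 to 12199709 counts. Itch, the targeted gene, stood at 204 and 183 CPM (counts scaled to library size with TMM factors) in WT and at 11.9 and 13.4 CPM in Itch KO. The libraries of a group were not alike. The summed level of 8 squamous epithelium markers was 636 CPM in WT replicate 1 and 14.3 CPM in WT replicate 2, against 18.2 and 19 CPM in the knockout libraries. Epithelial markers were present in every library, with Cdh1, the epithelial cadherin, at 285 to 387 CPM. Of the 16956 tested genes, edgeR's quasi-likelihood test with Benjamini-Hochberg adjustment called none (0% higher and 0% lower). At an unadjusted p below 0.05, 10.2% were higher and 9.52% lower in Itch KO, while with DESeq2 the adjusted calls were 5.59% higher, and 828 of 16552 genes lower.

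None of the 9 genes passed edgeR's test, the planned one. Read against the shares above, 6 of the 9 were higher at an unadjusted p below 0.05 (Csf2, Csf3, Csf1r, Csf2rb, Il3ra and Csf3r) and none was lower. DESeq2 called 5 of the 9 higher (Csf3, Csf1r, Csf2rb, Il3ra and Csf3r), 1 ligand and 4 receptor chains, and none lower. Both knockout libraries lay above both WT libraries for 8 of the 9, a separation seen in 30.0% of tested genes, and Csf1 was the exception. The median log2 fold change was 2.32 over the 4 ligands and 1.78 over the 5 receptor chains, against 0.01 over all tested genes. Since Csf2 and Csf3 had to be high in Itch KO to be tested, these counts and the ligand median are a description of these libraries. Over the other 7 genes, 4 were higher at an unadjusted edgeR p below 0.05, DESeq2 called 4 higher, and 6 did not overlap between groups.

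**Figure D1:**
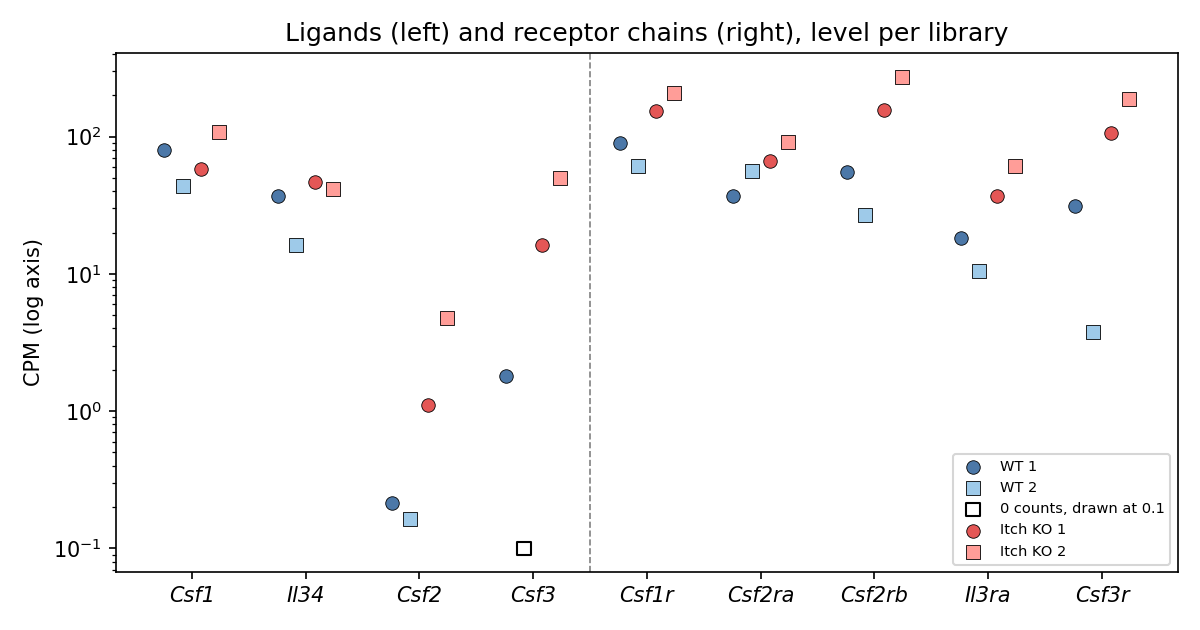
Level of each gene in each library, in CPM on a log axis, with ligands left and receptor chains right of the dashed line. Circles are replicate 1 and squares replicate 2, blue for WT and red for Itch KO, and the open square marks Csf3 at 0 counts in WT replicate 2. The Csf1 points of the groups interleave, whereas for the other 8 genes both red points lie above both blue points.

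Among the ligands of CSF1R, Csf1 (ENSMUSG00000014599, chromosome 3, 107741048 to 107760469, minus strand) stood at 80.1 and 43.8 CPM in WT, against 57.9 and 108 CPM in Itch KO. The groups overlapped, since WT replicate 1 lay between the knockout libraries. The means were 62 ± 25.7 and 82.9 ± 35.4 CPM (SD, n = 2 each), and the log2 fold change of 0.42 (SE 0.44) had an edgeR adjusted p of 0.613. Without Itch KO replicate 2 its sign turned, to -0.0886.

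Il34 (ENSMUSG00000031750, chromosome 8, 110741829 to 110805924, minus strand), the second ligand of CSF1R, stood at 36.7 and 16.1 CPM in WT, against 46.7 and 41.4 CPM in Itch KO. The groups did not overlap, but WT replicate 1 was nearer to the knockout libraries than to WT replicate 2. The log2 fold change was 0.74 (SE 0.45, edgeR adjusted p = 0.411), and it was 1.47 without WT replicate 1 and 0.26 without WT replicate 2. The squamous markers given above were also high in WT replicate 1, and their part in the Il34 level there was not tested. Krt5, a basal keratin, stood at 138 CPM in that library and at 0.244 CPM in WT replicate 2. Il34 shares 75 and 22 exonic bases with a pair of antisense genes, which held at most 23 and 5 counts in a library.

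The hematopoietic factor genes Csf2 and Csf3 were scarce in WT mucosa. Csf2 (ENSMUSG00000018916, chromosome 11, 54247271 to 54249667, minus strand) had 2 counts in each WT library and 9 and 46 counts in the knockout libraries. These counts correspond to 0.213 and 0.163 CPM against 1.11 and 4.75 CPM. The summed knockout rate was 16.7 times the WT rate, with a 95% exact binomial interval of 6.16 to 63.5. That interval covers counting error only and leaves out the spread between libraries. Since Csf2 was tested through its knockout counts, the interval is a description and not a test of a difference. Itch KO replicate 2 gave 46 of the 55 knockout counts, and without it the DESeq2 log2 fold change was 2.56, against 3.95 with all libraries, with no adjusted p. The log2 fold change was 3.90 (SE 1.02), with an adjusted p of 0.175 in edgeR and 0.119 in DESeq2. The gene shares 96 exonic bases, 12% of its exons, with an antisense gene, and the strand setting of the counting is not given.

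Csf3 (ENSMUSG00000038067, chromosome 11, 98701263 to 98703629, plus strand) had 17 and 0 counts in WT and 131 and 487 in Itch KO. Its level was 1.81 and 0 CPM against 16.1 and 50.3 CPM, so that the lower knockout library still stood above the higher WT library. The log2 fold change of 5.24 (SE 1.68) was the largest among the 9 genes in the fit of all 4 libraries. Leaving out the second knockout library gave 4.18, the first 5.83, and the second WT library 4.19. Leaving out WT replicate 1 gave 11.40, where the remaining WT count is 0 and the value is no bound. DESeq2 called it (adjusted p = 0.00221), whereas edgeR did not (adjusted p = 0.217). The DESeq2 call was lost on leaving out Itch KO replicate 1 (adjusted p = 0.717) or replicate 2 (adjusted p = 0.445).

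Interleukin-3, the ligand of IL3RA, is encoded 15.6 kb from Csf2. Il3 was read in 3 libraries only, at 0 counts in WT replicate 2 and 1 and 9 counts in Itch KO replicates 1 and 2, and it was not analysed further here.

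**Figure D2:**
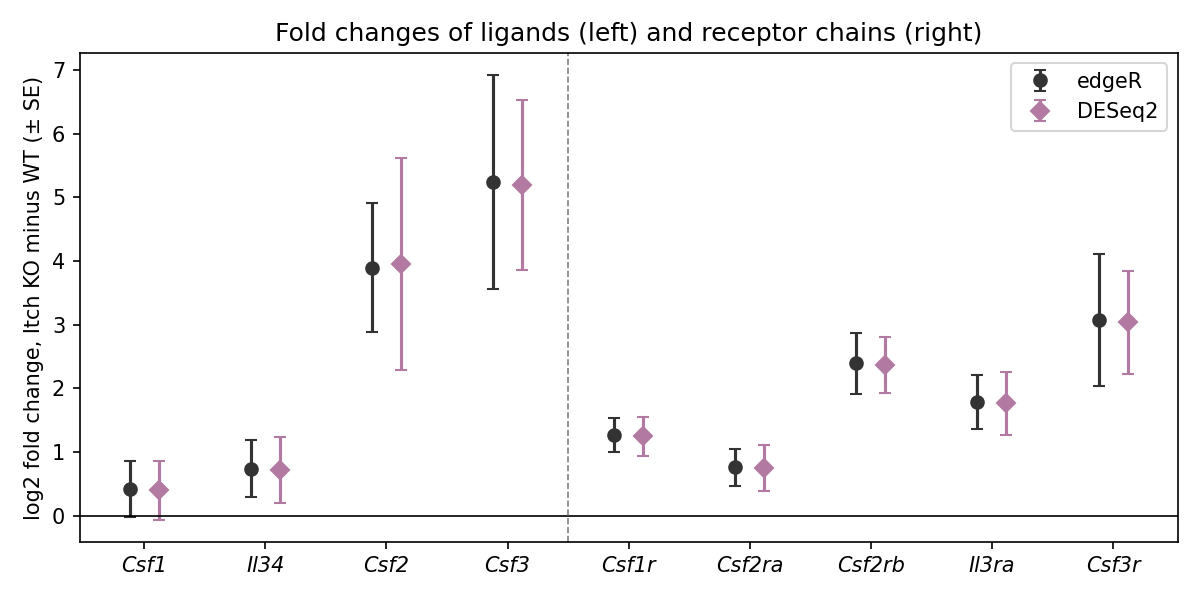
Log2 fold change of each gene, Itch KO minus WT, from edgeR (circles) and DESeq2 (diamonds), with bars of 1 standard error on either side. Both tools gave nearly the same estimates, from 0.42 for Csf1 to 5.24 for Csf3 in edgeR, and the bars are widest for Csf2, Csf3 and Csf3r.

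For all 5 receptor chains the lower knockout library exceeded the higher WT library. In bulk mucosa, more cells of a type and more RNA per cell cannot be told apart, here and below. Csf1r (ENSMUSG00000024621, chromosome 18, 61100598 to 61132149, plus strand), the receptor gene of the macrophage lineage, stood at 89.9 and 61.2 CPM against 155 and 208 CPM. Its means were 75.6 ± 20.3 and 181 ± 37.8 CPM (SD, n = 2 each), and its log2 fold change was 1.26 (SE 0.27). The edgeR adjusted p was 0.138 and the DESeq2 adjusted p 0.0014, and the DESeq2 call was lost on leaving out WT replicate 2 (adjusted p = 0.113) or the second knockout library (adjusted p = 0.184). The gene shares 873 exonic bases, 15.1% of its exons, with Hmgxb3 on the opposite strand. Hmgxb3 held 723 and 1038 counts in WT and 468 and 473 in Itch KO, the opposite direction to Csf1r.

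Csf2ra (ENSMUSG00000059326, chromosome 19, 61223957 to 61228429, minus strand), the alpha chain for CSF2, stood at 37 and 56.6 CPM in WT and 66.6 and 92 CPM in Itch KO. It differed least among the receptor chains, with a log2 fold change of 0.76 (SE 0.29) and an adjusted p of 0.266 in edgeR and 0.206 in DESeq2. It was also the one gene of the 9 that was lower in WT replicate 1 than in WT replicate 2.

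Csf2rb (ENSMUSG00000071713), the beta chain gene whose sequence is given above, stood at 55.3 and 27 CPM in WT, against 156 and 274 CPM in Itch KO. The means were 41.1 ± 20 and 215 ± 83.4 CPM (SD, n = 2 each), with a log2 fold change of 2.39 (SE 0.48) and adjusted p values of 0.135 in edgeR and 5.99e-06 in DESeq2. It was the one gene of the 9 whose DESeq2 call held when any single library was left out, with adjusted p values of 2.39e-11 to 0.0204. Its copy Csf2rb2 stood at 46.2 and 16.6 CPM against 101 and 184 CPM, a log2 fold change of 2.19 (SE 0.60). The ratio of Csf2rb to Csf2rb2, per kb of exon, was 0.779 and 1.06 in WT and 1 and 0.967 in Itch KO. The counts assigned to each copy were thus higher in knockout mucosa by a similar factor. How reads from the shared stretches were assigned is not given, and the level of either copy alone is uncertain.

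Il3ra (ENSMUSG00000068758, chromosome 14, 14346275 to 14356011, plus strand), the alpha chain for interleukin-3, stood at 18.1 and 10.4 CPM in WT, against 37.1 and 61 CPM in Itch KO. The log2 fold change was 1.78 (SE 0.43), with adjusted p values of 0.160 in edgeR and 0.00672 in DESeq2. The latter call was lost on leaving out WT replicate 2 (adjusted p = 0.170) or the second knockout library (adjusted p = 0.498).

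Csf3r (ENSMUSG00000028859, chromosome 4, 126024550 to 126044440, plus strand), the receptor gene of the neutrophil lineage, stood at 31.4 and 3.75 CPM in WT, against 106 and 187 CPM in Itch KO. The WT libraries differed 8.37-fold, the widest spread within a group among the genes with counts in every library. The log2 fold change was 3.08 (SE 1.04) and the adjusted p 0.228 in edgeR and 0.00324 in DESeq2. The fold change was 5.31 without WT replicate 1 and 2.22 without WT replicate 2, and the DESeq2 call was lost without Itch KO replicate 1 (adjusted p = 0.433) or replicate 2 (adjusted p = 0.194).

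The spread within groups had a common direction. Itch KO replicate 2 stood above Itch KO replicate 1 for 8 of the 9 genes, against 45.5% of all tested genes, and Il34 was the exception. The ratio of replicate 2 to replicate 1 was 0.887 for Il34 and ran from 1.35 for Csf1r to 4.3 for Csf2 over the other 8, with 0.969 as the median over all tested genes. WT replicate 1 stood above WT replicate 2 in CPM for 8 of the 9, against 49.5% of all tested genes, although Csf2 rests there on 2 counts in each library.

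Promoter sequence was matched in RefSeq (GRCm38.p6) for 5 of the 9 genes, namely Csf1, Csf2, Csf2ra, Il3ra and Csf3r. The 250 bases before each RefSeq start were searched on both strands for 6 motifs. The NF-kB pattern was GGG, any 3 bases, then TTCC, and its letters were found before Csf1 and Csf3r and in 4.6% of 27025 promoter windows of that length. These windows are shown because Csf1 overlapped between groups while Csf3r was several times higher in Itch KO, with the NF-kB match in capitals. The first window is chr3:107760470-107760719 on the minus strand and the second chr4:126024409-126024549 on the plus strand. The Csf3r stretch is cut to the 141 bases before the GENCODE start, which lies upstream of the RefSeq start, so the rest of its searched window is not shown.
Csf1: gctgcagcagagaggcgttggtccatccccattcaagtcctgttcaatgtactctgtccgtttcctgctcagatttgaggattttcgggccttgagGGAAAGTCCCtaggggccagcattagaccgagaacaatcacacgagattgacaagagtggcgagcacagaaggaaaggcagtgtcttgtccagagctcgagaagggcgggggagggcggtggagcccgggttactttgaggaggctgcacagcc
Csf3r: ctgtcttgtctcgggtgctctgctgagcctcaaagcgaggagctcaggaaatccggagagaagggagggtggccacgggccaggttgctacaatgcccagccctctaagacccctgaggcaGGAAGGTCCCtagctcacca

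The PU.1 core GAGGAA, present in 23.1% of promoter windows, was found before Csf2ra at 2 places and before Csf3r once, from -86 to -81 of its RefSeq start and outside the stretch shown. The Csf2ra matches, from -14 to -9 and from -8 to -3 of its RefSeq start, reach or lie past its GENCODE start. The C/EBP letters TTGCNNAA, present in 9.55%, were found before the RefSeq starts of Csf2 and Il3ra. The Il3ra match, from -134 to -127, lies past its GENCODE start, which only 30 of the searched bases precede. None of the 5 windows held the AP-1 letters TGANTCA (6.87% of windows). The same was true of the STAT letters TTCNNNGAA (7.18%) and of the TATA letters TATAAA (13%). No match overlapped another, and a match describes letters, not a bound site. For Csf2, on the minus strand, the searched window runs down to 54249900, whereas the GENCODE start is at 54249667. The bases between were not searched for any motif, so the absence of letters holds for the window only.

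Levels were compared between genes as CPM per kb of annotated exon. In WT mucosa Csf2ra (16.3 ± 4.83), Il34 (13.5 ± 7.42), Csf1r (13.1 ± 3.52) and Csf1 (11.7 ± 4.86) had the highest means, and neighbours among them overlapped. Csf3r in WT replicate 1 (8.69) also lay above Il34 (8.24) and Csf1 (8.30) in WT replicate 2. Csf2rb, Csf3r and Il3ra followed at means of 4.81 to 5.65, and Csf3 and Csf2 came last at 0.642 and 0.235 (means of n = 2, with SD where given). In Itch KO mucosa Csf3r was highest at 40.6 ± 16, followed by Csf1r, Csf2rb, Csf2ra, Csf3 and Il34, and each of these overlapped with the next. Csf3r had the highest level of the 9 in each knockout library.

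**Figure D3:**
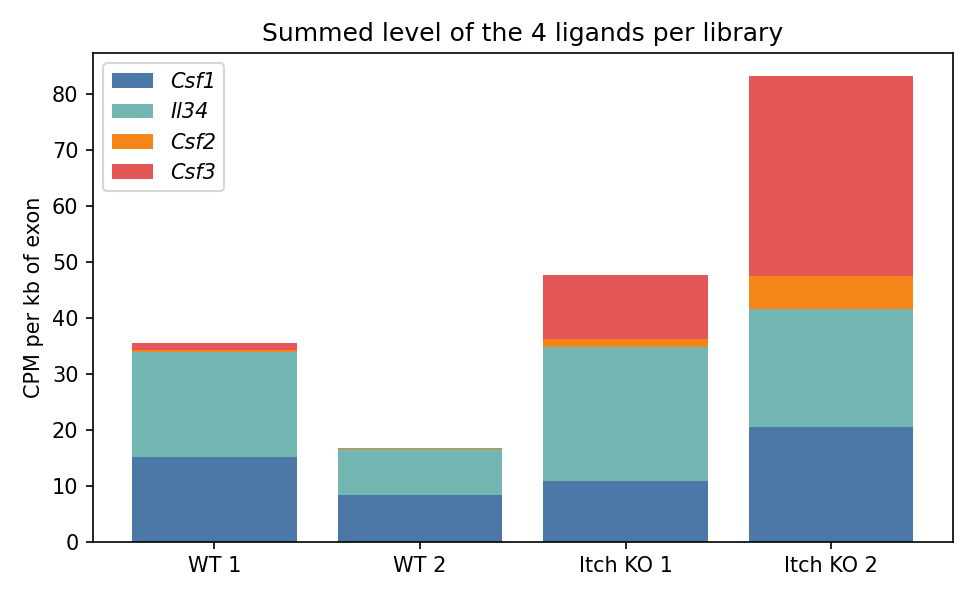
Summed level of the 4 ligands in each library, in CPM per kb of exon, with each ligand as a stacked segment starting from 0. Csf1 and Il34 fill nearly the whole bar in WT, while Csf2 and Csf3 hold 26.9% and 50% of it in the knockout libraries.

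The make-up of the ligand transcripts is a description, since the share of Csf2 and Csf3 comes from genes that had to be high in Itch KO to be tested. On the scale of CPM per kb, Csf1 and Il34 together held 95.6% and 98.8% of the ligand sum in WT and 73.1% and 50% in Itch KO. The ligand sum was 35.5 and 16.7 in WT and 47.6 and 83.1 in Itch KO. The receptor sum was 50.9 and 38.6 against 113 and 178. The ratio of receptor to ligand sum nevertheless overlapped, at 1.43 and 2.30 against 2.38 and 2.14.

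Ligand was then set against receptor within each library, as the ratio of reads per kb of exon with 0.5 added to each count. Csf1 to Csf1r was 0.974 and 0.783 in WT and 0.41 and 0.567 in Itch KO, lower in both knockout libraries. Il34 to Csf1r overlapped, at 1.2 and 0.779 against 0.891 and 0.587. By annotated exon length, transcripts of CSF1R therefore exceeded those of each of its ligands in every knockout library and in WT replicate 2. In WT replicate 1 they exceeded those of Csf1 but not those of Il34.

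The ratios of Csf3 and Csf2 are given as a description only, because both genes entered through their knockout counts and their WT values rest on 0 to 17 counts. Csf3 to Csf3r was 0.152 and 0.0275 in WT and 0.391 and 0.686 in Itch KO, where the value of WT replicate 2 is set by the 0.5 added to a count of 0. Csf2 to its alpha chain Csf2ra was 0.0258 and 0.0129 against 0.0628 and 0.187. Both ratios were higher in both knockout libraries, but Csf2 to Csf2rb overlapped at 0.0439 and 0.0686 against 0.0681 and 0.160. Of 5 ligand to receptor pairs, 2 were higher, both with a ligand that entered in this way, 1 was lower and 2 overlapped. The design of 2 against 2 libraries allows no exact permutation p below 0.05, and none is given.

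**Figure D4:**
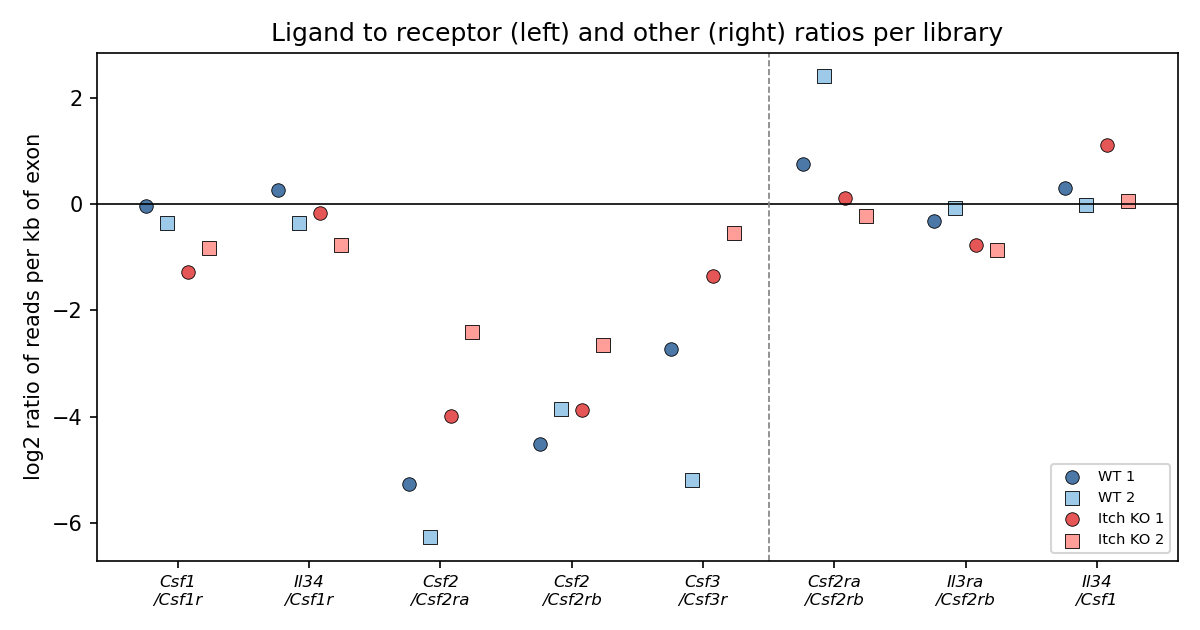
Log2 ratio of reads per kb of exon in each library for 5 ligand to receptor pairs (left of the dashed line) and 3 other pairs, with colours and shapes as for the levels. The Csf1 to Csf1r points are lower in Itch KO, the Csf2 to Csf2ra and Csf3 to Csf3r points are higher, and Csf2ra to Csf2rb falls toward 0.

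The chains of the granulocyte-macrophage receptor also shifted against each other. Csf2ra exceeded Csf2rb in WT, at a ratio of 1.7 and 5.32, and the 2 chains were near equal in Itch KO at 1.08 and 0.852. Il3ra to Csf2rb was 0.807 and 0.951 in WT against 0.584 and 0.547 in Itch KO, so the beta chain was the more abundant in all 4 libraries. The exon length of Csf2rb is the union of all annotated exons, which sets the absolute ratio but not its difference between libraries.

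A list of 23 genes, which signal below these receptors or encode myeloid transcription factors, was higher in part. At an unadjusted edgeR p below 0.05, 11 were higher and 1 lower, and DESeq2 called 9 higher and 1 lower. The median log2 fold change was 0.34. Spi1, which encodes the myeloid transcription factor PU.1, stood at 25.3 and 14.9 CPM in WT and 68.7 and 109 CPM in Itch KO. Inpp5d, a lipid phosphatase that restrains cytokine signals, stood at 47.4 and 44.7 against 113 and 161 CPM, and Lyn, a Src-family kinase, at 86.6 and 74.1 against 145 and 169 CPM. The gene lower by both tools was Cbl, a ubiquitin ligase known to act on activated CSF1R, at 95.4 and 70.9 against 36.2 and 27.8 CPM. The kinase gene Jak2, which serves the beta chain, overlapped at 207 and 164 against 180 and 186 CPM, and Stat5a overlapped as well, at 41.8 and 51.7 against 44 and 67.4 CPM. Jak2 and Stat5a were named after their values were seen.

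Of 14 target and feedback genes, 6 were higher and 1 lower at an unadjusted edgeR p below 0.05, and DESeq2 called 6 higher and none lower (median log2 fold change 0.90). Socs3, a feedback inhibitor that binds CSF3R, stood at 70.9 and 83.6 CPM in WT and 158 and 193 CPM in Itch KO. Socs1, a related inhibitor, stood at 8.11 and 10.3 against 40.2 and 61.5 CPM, and Osm, an interleukin-6 family cytokine, at 3.95 and 1.3 against 39.8 and 106 CPM. The STAT5 target Cish, named after its values were seen, overlapped at 33.4 and 43.7 against 27.8 and 42 CPM. The lower gene was Socs2, likewise a STAT5 target, at 80.4 and 100.9 against 51.5 and 66 CPM.

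Of 12 genes for cytokines and sensors known to induce colony stimulating factors, 9 were higher at an unadjusted edgeR p below 0.05. None was lower by that rule, and DESeq2 called 7 higher. Some of the 12 were scarce in WT and passed the filter through their knockout counts, so these counts are a description. Tnf stood at 12.9 and 6.36 CPM against 58.5 and 89.9 CPM and Il1a at 5.76 and 2.12 against 36.4 and 103 CPM. Itch KO replicate 2 exceeded replicate 1 for both, as it did for Csf2 and Csf3 and for 45.5% of all tested genes. A link between these genes was not tested.

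Among 8 measured genes of related factors, Csf2rb2 was called higher by DESeq2 (adjusted p = 0.0017) and no gene lower. At an unadjusted edgeR p below 0.05, Ptprz1, reported as another receptor for interleukin-34, was lower at 29.3 and 20.9 against 11.2 and 12.8 CPM. Kitl, the ligand of the related kinase KIT, was lower by the same rule at 182 and 187 against 149 and 142 CPM.

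**Figure D5:**
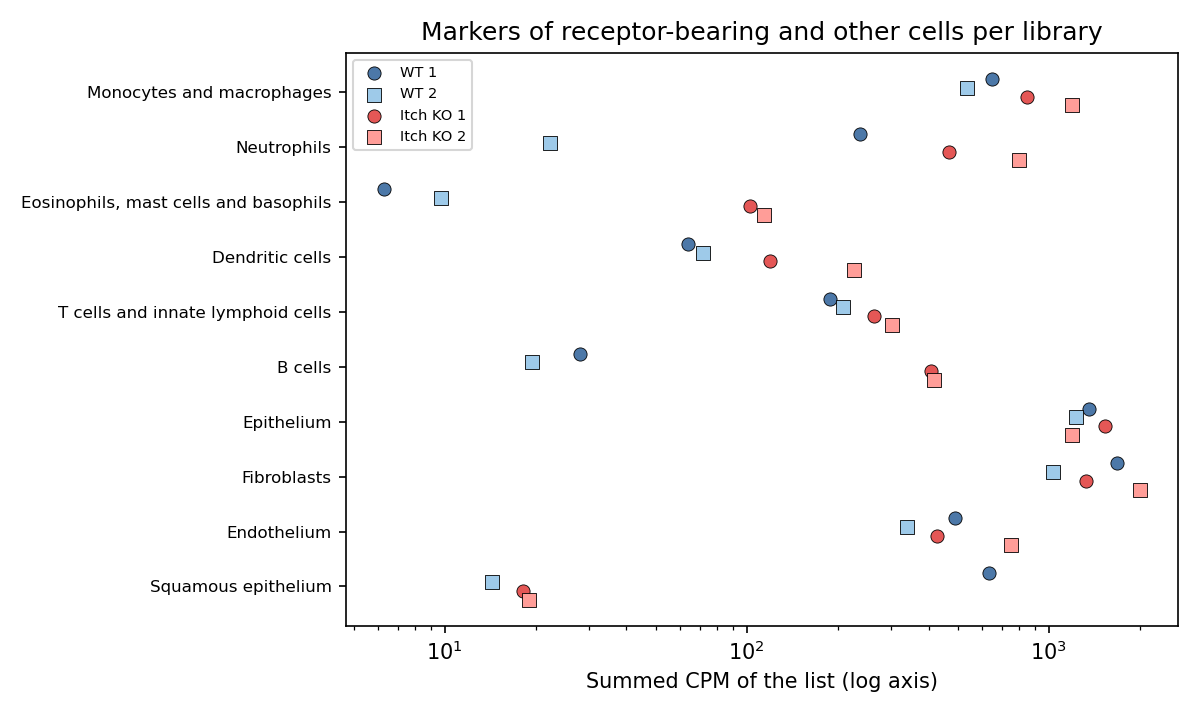
Summed CPM, on a log axis, of marker genes for 10 cell types in each library, with colours and shapes as for the levels. Sums for myeloid and lymphoid cells are higher in both knockout libraries, epithelial sums overlap, and the squamous sum is high in WT replicate 1.

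Markers of the cells that carry these receptors were higher in part. The 13 measured monocyte and macrophage markers summed to 647 and 537 CPM in WT and 846 and 1193 CPM in Itch KO. At an unadjusted edgeR p below 0.05, 8 of the 13 were higher and 1 lower, and DESeq2 called 4 higher and 1 lower. Ly6c2 and Ccr2, markers of recruited monocytes, were among the higher, at 14.4 and 11.5 against 46.7 and 51.5 CPM and at 39.9 and 22.6 against 94.2 and 169 CPM. The lower gene was Mertk, a receptor of mature macrophages for apoptotic cells, at 88.9 and 165.6 against 63 and 54.3 CPM, and no marker of this list was at 0 in any library.

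The 12 neutrophil markers summed to 237 and 22.4 CPM in WT and 467 and 799 CPM in Itch KO. The sum was higher in WT replicate 1 than in WT replicate 2, as Csf3r was. Much of that WT spread came from Ltf, whose values are given below. Of the 10 tested, 6 were higher and none lower at an unadjusted edgeR p below 0.05, and DESeq2 called the same number. Mmp8, a neutrophil collagenase, stood at 1.71 and 0.163 against 47.8 and 112 CPM, and passed the filter through its knockout counts. The WT libraries were closer for Retnlg, another neutrophil marker, at 5.97 and 3.91 CPM against 39.6 and 50 CPM in Itch KO. Mpo and Elane, granule genes of immature neutrophils, were too low to be tested. Ltf, which glandular epithelium also expresses, was at 126 CPM in WT replicate 1 against 2.28 CPM in WT replicate 2, with 58.1 and 82.9 CPM in Itch KO.

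Relative to these sums, Csf1r amounted to 13.9% and 11.4% of the monocyte and macrophage sum in WT and 18.3% and 17.4% in Itch KO. Csf3r amounted to 13.3% and 16.7% of the neutrophil sum in WT and 22.6% and 23.5% in Itch KO. The Csf1r share was higher in both knockout libraries. The Csf3r share depended on Ltf: with Ltf left out of the sum, a choice made after seeing the data, it was 28.3% and 18.6% in WT against 25.8% and 26.2% in Itch KO, and the groups overlapped. The part of cell numbers in the receptor levels was not tested.

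Eosinophil, mast cell and basophil markers, whose cells carry IL3RA, summed to 6.29 and 9.7 CPM in WT and 102 and 114 CPM in Itch KO. DESeq2 called 5 of 6 tested genes higher. Some of these, such as Fcer1a at 0.64 and 0.652 CPM in WT, passed the filter through their knockout counts. The count of calls is therefore a description. Cpa3 gave 52.6 and 49.9 CPM and Fcer1a 24 and 24.9 CPM of the knockout sums. Siglecf was not measured and Epx was too low to be tested, so the sum does not separate these cell types. Dendritic cell markers summed to 64.1 and 71.9 against 120 and 226 CPM, with 4 of 8 called higher. T cell and innate lymphoid markers summed to 188 and 208 against 264 and 303 CPM (1 of 8 called higher). B cell markers summed to 28.1 and 19.5 against 407 and 418 CPM (5 of 5). A B cell marker among these also passed the filter through its knockout counts.

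Markers of stromal and epithelial sources followed another pattern. Fibroblast markers summed to 1681 and 1037 CPM in WT and 1326 and 2001 CPM in Itch KO, and endothelial markers to 489 and 339 against 426 and 748 CPM. Both sums had the order of Csf1 over the libraries, and Csf1 amounted to 4.23% to 5.39% of the fibroblast sum and 12.9% to 16.4% of the endothelial sum, with overlapping groups. Epithelial markers overlapped at 1356 and 1229 against 1538 and 1192 CPM. DESeq2 called none of the fibroblast, endothelial and epithelial markers, and edgeR gave none an unadjusted p below 0.05.

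The genes whose pattern over the 4 libraries was most like that of a member were found by the Euclidean distance of centred log2 CPM among 13268 genes whose mean reached 5 CPM. With 4 libraries many genes share a pattern, and 302 genes lay within 0.5 of Csf1 but 6 within 0.5 of Csf3r. Nearest to Csf1 were CCL21A (0.06), Adamts1 (0.07) and Cd93 (0.08), and among the nearest to Il34 were Capg (0.10) and Tnfrsf12a (0.21). Nearest to Csf1r were Fcer1g (0.09), Fes (0.13) and Cxcl16 (0.14). Nearest to Csf3r were Chrdl2 (0.23), Gzmc (0.35) and Mmp10 (0.36), of which Mmp10 stood at 20.4 and 3.34 CPM in WT and 76.2 and 126.6 CPM in Itch KO.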

How the data were processed

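Each library has its own table, in which the authors deposited unnormalized gene counts. Per the submitters' processing notes, the tools were HTSeq 0.6.1, SAMtools 0.1.19, TopHat2 and CASAVA 1.8.2, and the builds mm10 and GRCm38. Strand setting, read length and duplicate handling are not stated there. WT replicate 1 lists 19308 genes and the other files 39179. Tests used the 19308 shared genes, which hold 97.3% to 97.7% of the counts in the longer files. HTSeq summary lines stayed out. In the longer files they put 18.2% to 23% of all reads outside the counted features and 2.67% to 3.03% as ambiguous. WT replicate 1 has no such lines. No gene exceeded 9389 counts.

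Counts were tested with edgeR 4.0.16 (R 4.3.3): filterByExpr at a minimum count of 10, TMM, robust quasi-likelihood fit, group as the only term, two-sided, Benjamini-Hochberg adjustment over all 16956 genes, 2 residual degrees of freedom. DESeq2 1.42.0 ran on genes with any count. 3 counts correspond to 0.244 to 0.369 CPM. Positions and exon lengths come from GENCODE M21 (GRCm38). Scripts were tested on simulated data. Every member was named, and from each list up to 4 genes with the smallest edgeR p below 0.05, or the most abundant gene where none had one. Some of these are given only in counts, and Mertk, Ltf, Socs2, Cish, Jak2, Stat5a and Hmgxb3 were named after their values were seen. One gene the rule names is not reported here. Members and lists were chosen with earlier results of these data known. Alternatives were RLE factors, no filter, DESeq2, a replicate block and each library left out, and DESeq2 without each library, the neutrophil sum without Ltf and the counts without Csf2 and Csf3 were added after seeing the data.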

Additional observations from a re-analysis of the deposited data

Results flagged for a closer look

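Il3, which lies beside Csf2 and was outside the tested genes, had 9 counts in Itch KO replicate 2 and 1 in replicate 1, against 0 in WT replicate 2. A count of 0 there allows up to 3 counts, or 0.246 CPM before scaling, for counting error only.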

How the results depend on the processing

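edgeR called 0 genes and 0 of the 9 members with all 4 libraries, with RLE factors, without the filter, and without any single library. At an unadjusted p below 0.05 it gave 1729 genes higher and 1614 lower. DESeq2 called 1753 genes (925 higher, 828 lower) and 5 members. Leaving out 1 library each, DESeq2 called 1 to 5 members: 5 without WT replicate 1, 3 without WT replicate 2 or Itch KO replicate 1, and 1 without Itch KO replicate 2. Titles share replicate numbers, but same-numbered libraries did not deviate together (r = 0.0481 across 16956 genes), and with the replicate block edgeR called 0 genes and 0 members. Of 71 member fold changes with RLE factors, no filter, the replicate block, DESeq2 on all libraries or edgeR without 1 library, 70 kept their direction. The exception was Csf1, which ran from -0.0886 without Itch KO replicate 2 to 0.94 without WT replicate 1. It also reversed in the added DESeq2 fit without Itch KO replicate 2 (-0.10). Csf2 could not be tested without Itch KO replicate 2 because it did not pass the filter. The Csf3 fold change of 11.40 without WT replicate 1 rests on a WT count of 0 and is no bound. Of the ligand to receptor pairs, the number lower in Itch KO ran from 1 to 2 as libraries were left out, and the number higher was 2 to 3. The causes were not tested.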
